A study of Arabidopsis thaliana with 4 samples.

Results

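PTD, RCK, SDS and SPO11-1 are 4 genes of Arabidopsis meiosis that act between the breaking of chromosomes and the formation of crossovers. They were taken by locus (AT1G12790, AT3G27730, AT1G14750 and AT3G13170) from the probe sets that the platform annotation gives to a single gene. Each had 1 such probe set, so the 4 genes stand among 13286 loci measured by name on these arrays. No probe set shared between genes included any of them, and all 4 probe sets carry the plain Affymetrix suffix that marks no sharing between transcripts.

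The arrays compare cdm1 mutant plants with wild type plants, both of the Col-0 cultivar and 24 days after germination, with 2 biological replicates of each genotype. CDM1 encodes a CCCH zinc finger protein that takes part in the callose metabolism of male meiotic cells, and the labels name no allele. Total RNA came from whole unopened flower buds, 500 ng per array, so meiotic cells were a small part of a mixture of floral organs. The growth protocol mentions moderate drought for some plants, and no label ties a drought treatment to any sample. The CDM1 locus (AT1G68200) has no probe set named for it here, so the mutated gene gives no check of the labels.

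In meiosis, homologous chromosomes are broken on purpose, and repair of these breaks with the homologue as template yields crossovers that hold the chromosome pairs together until they separate. SPO11-1 belongs to the topoisomerase-like complex that cuts the DNA. SDS (SOLO DANCERS) is a meiosis-specific cyclin needed for homologue pairing and for repair from the homologue. RCK (ROCK-N-ROLLERS, also MER3) is a DNA helicase, and PTD (PARTING DANCERS) is a protein related to the ERCC1 nuclease subunit. Both act in the class I pathway, which makes most Arabidopsis crossovers and spaces them apart.

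The values are RMA levels on a log2 scale, as deposited, and the changes are cdm1 minus wild type. In cdm1 buds the crossover genes PTD and RCK read about 0.5 below wild type on this scale, SDS read 0.29 below, and the mean of SPO11-1 differed by less than its replicates did. Limma called 0 of the 4 at a threshold of 0.05 after adjustment over all 22746 probe sets, and it called 1.33% of all probe sets, 0.73% as lower and 0.602% as higher in cdm1. Since the buds were measured in bulk, fewer meiotic cells and less RNA of these genes per cell cannot be told apart.

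Among the crossover genes, PTD read 6.04 and 6.10 in cdm1 replicates 1 and 2, against 6.62 and 6.51 in wild type replicates 1 and 2. Both mutant arrays lay below both wild type arrays, and the gap of 0.41 between the groups was wider than the distance between the arrays of either genotype. The means were 6.07 ± 0.049 in cdm1 and 6.57 ± 0.076 in wild type (SD, n = 2 arrays each). The log2 change was -0.50 (SE 0.096, 95% interval -0.73 to -0.26, limma adjusted p = 0.0882), which corresponds to a level 1.41-fold lower in cdm1. Of all probe sets, 2.47% had a more negative change. The smallest change of any probe set that limma called was 0.61 in size, which is larger than that of PTD.

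RCK read 4.99 and 5.23 in cdm1, against 5.75 and 5.40 in wild type. The groups again did not overlap, but the gap of 0.17 was narrower than the distance between the arrays of either genotype. Its means were 5.11 ± 0.17 in cdm1 and 5.58 ± 0.24 in wild type (SD, n = 2 arrays each). The log2 change was -0.46 (SE 0.15, 95% interval -0.83 to -0.093, limma adjusted p = 0.236), or 1.38-fold lower in cdm1. Without wild type replicate 1, the change of RCK was -0.29.

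SDS, the cyclin, read 5.55 and 5.60 in cdm1, against 5.998 and 5.745 in wild type. The mutant arrays lay close together and below both wild type arrays, which differed from each other by 0.25. The log2 change was -0.29 (SE 0.12, 95% interval -0.58 to -0.011, limma adjusted p = 0.312), or 1.23-fold lower in cdm1. Without wild type replicate 1, the change of SDS was -0.17. SDS was the 1 gene of 30 listed cyclins with a named probe set. Its change could therefore not be set beside the A-, B- and D-type cyclins of dividing cells. The annotation did not list 8730 of the 22746 probe sets, and whether other cyclins are among these was not tested.

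SPO11-1 read 5.51 and 5.18 in cdm1, against 5.64 and 5.22 in wild type. Here the genotypes overlapped, and the arrays split by replicate number, with replicate 1 above replicate 2 by 0.33 in cdm1 and by 0.42 in wild type. Between arrays of the same number, cdm1 minus wild type was -0.12 for replicate 1 and -0.040 for replicate 2. The fitted log2 change was -0.082 (SE 0.18, limma adjusted p = 0.886). Its 95% interval, -0.52 to 0.35, runs from a level 0.698 times that of wild type to 1.28 times, so changes as large as those of PTD and RCK are inside it. The change was of opposite sign when cdm1 replicate 2 was left out (0.085), and likewise for wild type replicate 1 (0.13). The RefSeq span of SPO11-1 overlaps that of AT3G13160, whose own probe set had a log2 change of 0.19 (SE 0.093, limma adjusted p = 0.399). RCK overlaps ARI4, which has no named probe set, and where the probes lie in these overlaps was not tested.

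**Figure D1:**
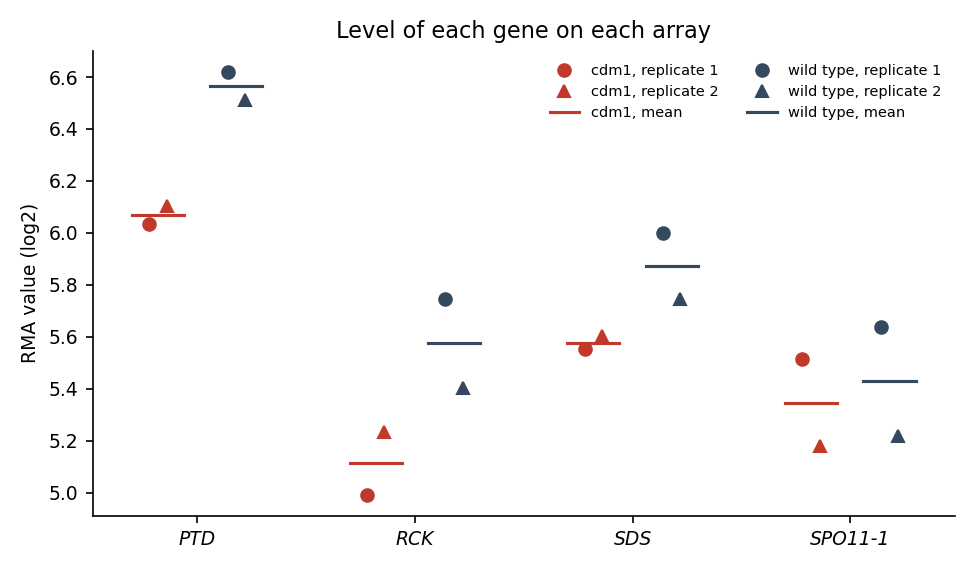
RMA value (log2, vertical axis) of PTD, RCK, SDS and SPO11-1 on each array, with cdm1 in red at the left of each gene and wild type in dark grey at the right. Circles are replicate 1, triangles replicate 2 and bars the mean of 2 arrays. The genotypes are apart by 0.41 for PTD, 0.17 for RCK and 0.14 for SDS, and overlap for SPO11-1.

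Wild type replicate 1 gave the highest value of all arrays for each of the 4 genes. In cdm1 the order of the replicates was not shared: replicate 2 read higher for PTD, RCK and SDS, and replicate 1 for SPO11-1. For PTD, RCK and SDS the groups did not overlap, with cdm1 lower, as was the case for 23.6% of all probe sets. The same 3 genes passed limma's test at 0.05 before adjustment, all as lower, as did 7.55% of all probe sets. The median log2 change over all probe sets was 0.0036.

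In wild type buds the order of the deposited levels was PTD, SDS, RCK and SPO11-1, and it was the same on both arrays. PTD stood apart, with a mean 0.69 above SDS and no overlap. SDS lay 0.30 above RCK and RCK 0.15 above SPO11-1, and in each of these pairs the ranges over the 2 arrays overlapped, by 0.24 for RCK and SPO11-1 and barely for SDS and RCK. Within an array the order held: RCK minus SDS was -0.25 and -0.34, and RCK minus SPO11-1 was 0.11 and 0.18. In cdm1 the first 2 places were the same, while RCK and SPO11-1 were in opposite order on the 2 arrays. An RMA level depends on the binding of the gene's own probes and is not scaled to transcript length, so this order is one of array signals and not of transcript abundance. All 4 genes were on the dim side of the array. In wild type, from 42.6% to 43.3% of probe sets read below PTD and from 32.9% to 35.6% below SPO11-1, and in cdm1 30.6% and 32.9% read below RCK. The dimmest 33.3% of probe sets ended at a mean of 5.32, just under the means of SPO11-1 and RCK over all arrays, and signal over background was not tested.

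Whether the genes of different steps differed in their change was examined through the difference between 2 genes on the same array. PTD minus SPO11-1 was 0.52 and 0.93 in cdm1, against 0.98 and 1.29 in wild type, without overlap, and the genotypes differed by -0.41. RCK minus SPO11-1 was -0.52 and 0.056 in cdm1, against 0.11 and 0.18 in wild type, a difference of -0.38. The groups in that pair do not overlap, but the cdm1 arrays lie far apart. PTD minus SDS differed by -0.20 between genotypes and RCK minus SDS by -0.17, both without overlap. PTD minus RCK, the pair within the crossover pathway, was 1.04 and 0.87 in cdm1, against 0.87 and 1.11 in wild type, a difference of -0.034 with overlapping groups. SDS minus SPO11-1 differed by -0.21, with overlap. An exact two-sided permutation test of 2 arrays against 2 cannot give a p below 0.333. It gave 0.333 for the 4 pairs without overlap and 0.667 for the others (0.5 and 0.667 when adjusted over the 6 pairs). These p-values could not have passed 0.05 in this design and do not tell whether the steps differ. Nor does the number of pairs without overlap. The pairs share genes, and of all single probe sets 47.3% separated the genotypes in either direction. The share among pairs of other probe sets was not computed.

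**Figure D2:**
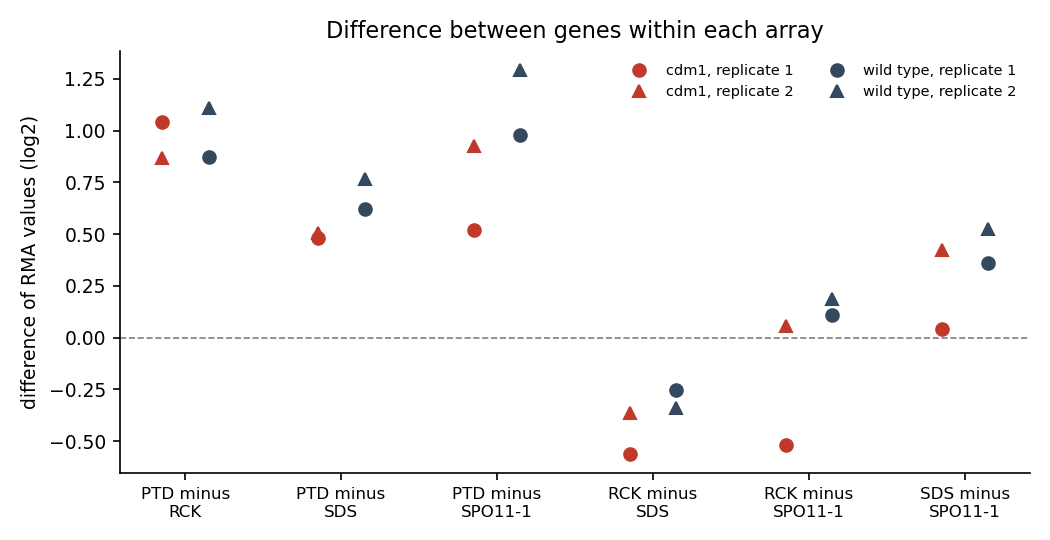
Difference of RMA values (log2, vertical axis) between 2 genes on the same array, for the 6 pairs of PTD, RCK, SDS and SPO11-1. Red points at the left of each pair are cdm1 and dark grey points at the right wild type, with circles for replicate 1 and triangles for replicate 2. PTD minus RCK is 1.04 and 0.87 in cdm1, against 0.87 and 1.11 in wild type, while PTD minus SPO11-1 is lower on both cdm1 arrays.

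The 4 genes were set beside a wider list of 69 loci known for roles in meiosis, of which 17 had a named probe set. Limma, adjusted over all probe sets, called 0 of the 17 in either direction, against 1.33% of all probe sets. Before adjustment 4 passed, PTD, RCK and SDS among them, as did 15.3% of all probe sets. Ordinary linear-model p-values called 0 of the 17 but only 1 of all 22746 probe sets, so that count tells nothing about the list. The change was negative for 11 of the 17 (49% of all probe sets), positive for 5 and within 0.001 of 0 for SPO11-2. Their median was -0.092, and without the 4 genes it was -0.083. Of the 17, 7 were lower in cdm1 without overlap and 2 were higher, where 23.6% and 23.7% of all probe sets were (47.3% in either direction). These counts include the 4 genes. Among the other 13, 7 changes were negative, 4 genes were lower without overlap and 2 higher, and 1 passed before adjustment. Of the measured loci, 5 have no symbol in the RefSeq table, and those other than PTD are named by locus.

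At the step of break formation, 4 of 7 listed genes were measured. SPO11-2, the partner of SPO11-1 in the cutting complex, read 4.48 and 4.47 in cdm1, against 4.58 and 4.36 in wild type. DFO, a plant protein needed for break formation, had a log2 change of 0.091 (SE 0.097), and AT1G60460 was at -0.23 (SE 0.17). The limma adjusted p-values at this step were 0.586 or higher. The median change of the 4 genes was -0.041.

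SDS was grouped with strand exchange, where 3 of 18 listed genes were measured, with a median change of -0.14, and the groups overlapped for 1 of them. MND1, which with its partner HOP2 promotes strand invasion, read 6.71 and 6.78 in cdm1, against 6.89 and 6.88 in wild type. The groups did not overlap, and the log2 change was -0.14 (SE 0.090, limma adjusted p = 0.514). Of the chromosome axis and cohesion genes, AT4G24710 was the 1 measured of 13 and was at -0.092 (SE 0.11).

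In class I crossover formation, PTD and RCK were the 2 measured of 9 listed genes, with a median change of -0.48. Genes of other crossovers and of crossover limitation had 6 of 8 measured, with a median of 0.034. FANCM, a helicase that limits crossovers, was at 0.0092 (SE 0.098). The RecQ helicase genes RECQ4A and RECQ4B, which also limit crossovers, were at 0.084 (SE 0.12) and -0.14 (SE 0.089), and the topoisomerase gene TOP3A was at 0.058 (SE 0.092). AT3G27120 read 5.77 and 6.10 in cdm1, against 6.37 and 6.20 in wild type, a log2 change of -0.35 (SE 0.14, limma adjusted p = 0.311). AT1G04650 was at 0.20 with a wide spread (SE 0.22), reading 5.84 and 6.43 on the wild type arrays. ZYP1B, which encodes a transverse filament protein of the synaptonemal complex, was at -0.22 (SE 0.13, limma adjusted p = 0.461). ZYP1A is a near-identical copy, so its signal cannot be kept apart with certainty. None of the 12 listed genes of the meiotic divisions and cytokinesis was measured by name.

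**Figure D3:**
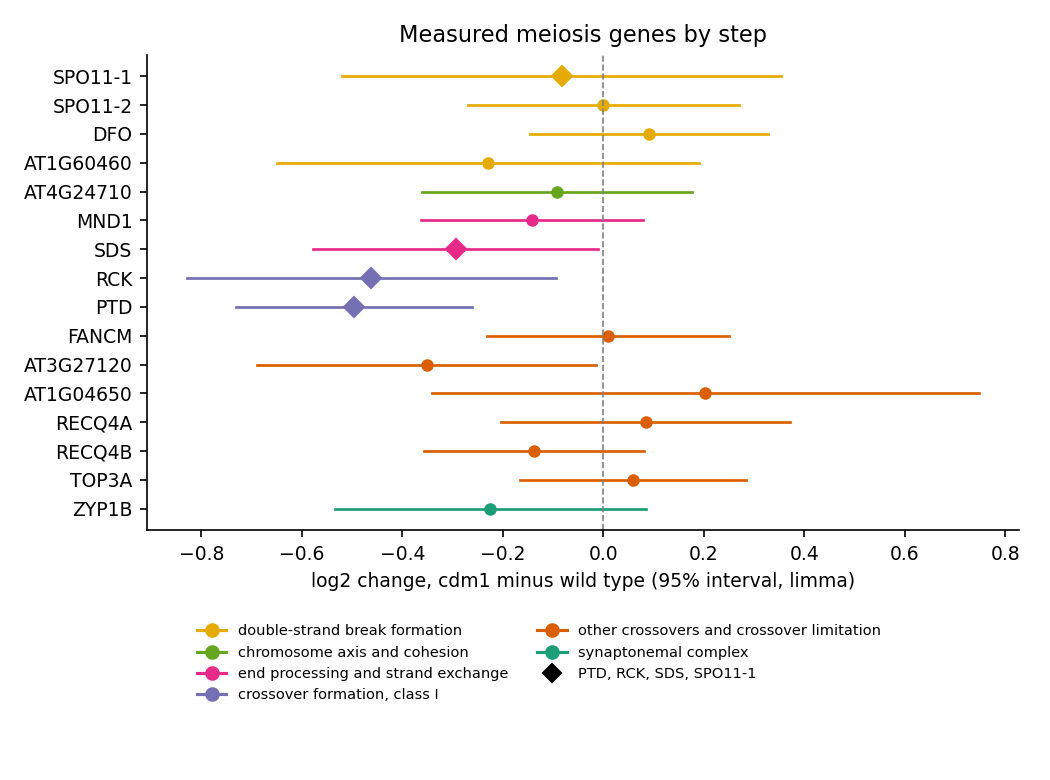
Log2 change, cdm1 minus wild type (horizontal axis, points with 95% intervals from limma), of the measured meiosis genes named in the text, coloured by step. Diamonds mark the 4 genes of interest: PTD at -0.50 and RCK at -0.46 lie farthest to the left, SDS at -0.29 follows with AT3G27120 at -0.35, and the interval of SPO11-1 spans 0.

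Markers of other cells in the bud were read on the same arrays, and their part in the values above was not tested. Of 15 listed tapetum genes 4 were measured, and the sum of their levels, taken off the log scale, was 10564 and 11811 in cdm1, against 8702 and 8388 in wild type. SHT, which encodes the spermidine hydroxycinnamoyl transferase of the tapetum, was the 1 called marker, at a log2 change of 1.73 (SE 0.24, limma adjusted p = 0.0367), and AT5G07230 had the smallest change, 0.12. Of 5 genes of early anther development 4 were measured, with sums of 1538 and 1476 in cdm1, against 1711 and 1714 in wild type. ROXY2, a glutaredoxin gene, was at -0.62 (SE 0.10, limma adjusted p = 0.0597), and SPL, the regulator that starts the formation of spore mother cells, was at -0.078 (SE 0.13). Of 15 late pollen genes 4 were measured, and their sums overlapped, at 486 and 515 in cdm1, against 528 and 464 in wild type. Of the 4, 2 were lower and 1 higher in cdm1 without overlap, where 23.6% and 23.7% of all probe sets were. The 4 changes ran from PLIM2A at -0.49 to ACT12 at 0.38. Floral identity genes such as AG and AP3 have no named probe set, so the label of the tissue could be read from anther genes: AMS, a transcription factor of the tapetum, read 11.3 on both cdm1 arrays and 11.1 on both wild type arrays. Of 8 carpel and ovule, 10 flower and 10 photosynthesis genes listed, 2 each were measured. The carpel and ovule genes INO and SPT were at 0.23 and -0.022, the petal genes PTL and RBE at 0.065 and -0.028, and the light-harvesting genes LHCB4.1 and LHCB4.2 at 0.058 and 0.085. For the 13 other meiosis genes the sums were 1083 and 1050 in cdm1, against 1118 and 1089 in wild type, with 1083 and 1089 close together. All sums given here weigh the brightest probe sets most. Among the 13, TOP3A read 7.94 to 8.04 over the arrays and SPO11-2 4.36 to 4.58.

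Likeness to each gene was measured as the root mean square difference between log2 profiles over the 4 arrays, after each was centred on its own mean. Among 13436 single-gene probe sets, PTD was most like AT5G25770 (0.013) and AT1G48580 (0.016). Since likeness was measured on these same arrays, their log2 changes were bound to lie near that of PTD, at -0.48 and -0.53. For RCK the nearest were AT4G25940 and AT2G42150 (0.030 each), for SDS AT3G43540 (0.013) and AT3G12040 (0.016), and for SPO11-1 AT2G17970 (0.013) and AT2G30830 (0.016). With only 4 arrays such likeness is common: 35 probe sets lay within 0.05 of PTD, 14 of RCK, 135 of SDS and 42 of SPO11-1. None of the 4 genes was among the 2 nearest to another.

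**Figure D4:**
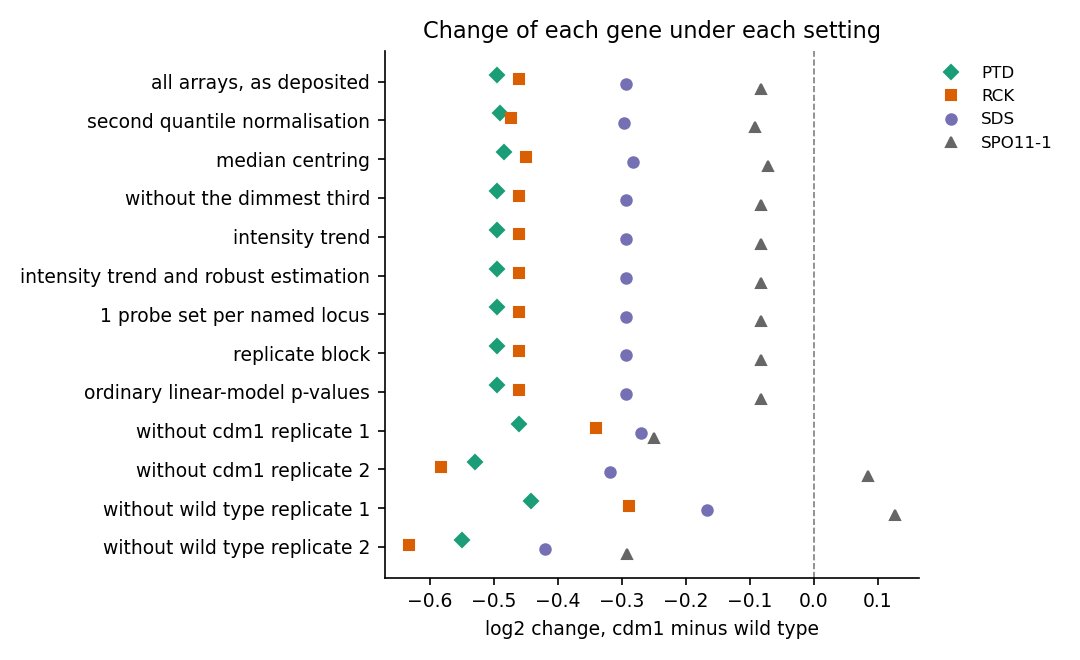
Log2 change, cdm1 minus wild type (horizontal axis), of PTD, RCK, SDS and SPO11-1 with all arrays as deposited and under 12 other settings (rows). PTD stays between -0.55 and -0.44, RCK runs from -0.63 to -0.29 and SDS from -0.42 to -0.17, and SPO11-1 crosses 0 in 2 settings that leave out an array.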

How the data were processed

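Expression was measured on Affymetrix arrays, 4 in all. The deposited values are log2 levels, 1 per probe set and array. Per the submitters' processing notes, the tools were RMA and affy (an R package), with no version stated. RMA normalises the arrays together and narrows fold changes of dim probe sets. Depth does not apply, and the number of arrays limits precision. Of 22746 probe sets, the platform annotation gave 13513 a single gene and 503 several, and 8730 were not listed. RefSeq (TAIR10.1) tied 13436 of them to 13286 loci and served for names and neighbours only. Sequences were not used here. Of the measured meiosis genes, 1 is counted but not reported by name here.

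Genotype was fitted with limma 3.58.1 in R 4.3.3 to all probe sets (two-sided, 2 residual degrees of freedom, Benjamini-Hochberg adjustment over 22746, threshold 0.05). The step was tested on simulated data. The 4 genes, the lists and the tests were chosen with earlier results of these data known. Named genes were the 4 genes, the other measured meiosis genes except the 1 left out, and extremes and called members of each marker list. Also named were, per gene, the 2 probe sets most like it, AMS for the tissue label, and AT3G13160 and ARI4, which overlap SPO11-1 and RCK. Pairs of genes were compared with an exact permutation test. The 12 alternatives covered normalisation, a dim filter, the variance prior, probe sets per gene, pairing, ordinary p-values and each array left out.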

Additional observations from a re-analysis of the deposited data

How the results depend on the processing

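PTD, RCK and SDS kept a negative change under all 12 alternatives, but for most of these the sign was fixed beforehand. The dim filter, the variance prior, 1 probe set per named locus, the replicate block and ordinary p-values left their log2 changes as they were. Leaving out an array cannot reverse a change between groups that do not overlap. Median centring could not reverse changes of this size either, since the array medians lay between 7.21 and 7.24. That leaves the second quantile normalisation, applied to values that RMA had already normalised together. With all arrays kept, none of PTD, RCK, SDS and SPO11-1 passed the threshold of 0.05. Limma adjusted p-values in those alternatives were 0.0763 to 0.261 for PTD, 0.202 to 0.387 for RCK and 0.254 to 0.390 for SDS. Leaving out each array gave changes of -0.55 to -0.44 for PTD, -0.63 to -0.29 for RCK, -0.42 to -0.17 for SDS and -0.29 to 0.13 for SPO11-1. The change of SPO11-1 was positive when cdm1 replicate 2 (0.085) or wild type replicate 1 (0.13) was left out. For the meiosis list, the count of called members was 0 in all settings, and the median change ran from -0.15 (without wild type replicate 2) to -0.054 (without wild type replicate 1). Over all probe sets 303 were called, against 465 with the intensity trend and robust estimation, 200 with 1 probe set per named locus (fewer were tested), 1 with ordinary linear-model p-values, and 0 (without either wild type array) to 1040 (without cdm1 replicate 2) when an array was left out. The causes of the other shifts were not tested. With the replicate block, 0 probe sets were called by limma (3110 passed before adjustment), and PTD had an adjusted p of 0.261. Deviations of arrays with the same number correlated at -0.066 and the labels tie the numbers to nothing shared, so they were not taken as pairs. Among differences between genes, recomputed in settings chosen after seeing the data, PTD minus RCK ran from -0.15 to 0.084 over the left-out arrays, positive when replicate 2 of cdm1 (0.052) or of wild type (0.084) was the one left out. SDS minus SPO11-1 ran from -0.40 to -0.020. The 4 pairs without overlap could not change sign here. PTD minus SPO11-1 ran from -0.61 to -0.21 and RCK minus SPO11-1 from -0.67 to -0.090. RCK minus SDS ran from -0.26 to -0.070 and PTD minus SDS from -0.27 to -0.13. Signal over background was not tested, and there were 2 arrays per genotype.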

Other observations

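All 4 measured genes of break formation (SPO11-1, SPO11-2, DFO and AT1G60460) read higher in replicate 1 than in replicate 2 of both genotypes, a pattern noticed after their values were seen. Over the 17 measured meiosis genes 8 did so, and over all probe sets 37.1% did. The difference of replicate 1 minus replicate 2, averaged over genotypes, was 0.38 for SPO11-1 and 0.32 for AT1G60460, against a median of 0.045 and 0.049 for probe sets within 0.5 of their levels. It was nearer to that median for SPO11-2 (0.12 against 0.073) and DFO (0.082 against 0.055). By genotype, the difference was 0.011 in cdm1 and 0.23 in wild type for SPO11-2, and 0.13 and 0.034 for DFO. Genes of other steps reached averages above those of SPO11-2 and DFO, with 0.18 for RECQ4A and 0.16 for AT4G24710, and PTD was at 0.020.

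Of the 17 measured meiosis genes, 11 were lower in cdm1 than in wild type both between the arrays numbered 1 and between those numbered 2, as were 31.4% of all probe sets. These are the same 11 genes whose change was negative, PTD, RCK, SDS and SPO11-1 among them, so the count adds nothing to that one. The labels tie the numbers to nothing shared, so it is not a paired comparison. The deposited means of SPO11-2 were the same in both genotypes, at 4.47.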
